A study of Mus musculus with 2 samples.

Results

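The genes described here encode 64 plasma membrane and lysosomal carriers of sugars, lactate and amino acids. They are the protein-coding genes of the GENCODE M21 mouse annotation whose symbols begin with Slc1a, Slc2a, Slc3a, Slc7a, Slc16a, Slc38a or Slc43a followed by a number, and they make up 64 of 21911 protein-coding gene symbols. Slc7a6os, a neighbour of Slc7a6 whose symbol goes on after the number, was left out. Chromatin accessibility around them was measured by ATAC-seq, in which a transposase cuts open DNA, in primary T-helper 1 cells from mice of the strain C57BL/6NJ. The data comprise 1 group with 2 biological replicates, with no second condition, no gene knocked out and no agent named in the labels. Each replicate has its own biosample under a shared donor identifier, the age and sex are not given, and nothing says that the cells came from separate animals. The region names also carry a time of 96 hours and words such as ASTARR and insert, which the labels do not explain.

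Resting T cells take up few nutrients, and activated T cells place glucose carriers and amino acid carriers at their surface to feed glycolysis, protein synthesis and the kinase mTORC1. GLUT1 (Slc2a1) and GLUT3 (Slc2a3) carry glucose, LAT1 (Slc7a5) paired with the CD98 heavy chain (Slc3a2) carries large neutral amino acids such as leucine, and ASCT2 (Slc1a5) carries glutamine and other small neutral amino acids. These 5 carriers are the isoforms best known from activated T cells and are set beside the other 59 below. Lactate made by glycolysis leaves and enters cells through the proton-coupled carriers of the Slc16a family.

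The promoter sequences of carriers that the results turn on are shown first, so that the positions below have letters beside them. They come from RefSeq on GRCm38, which is mm10, and 47 of the 64 genes have an entry of 250 bases before to 50 bases after the start. Only the part before the start that overlaps no annotated exon is printed, 5′ to 3′ in the direction of transcription. Capitals mark matches, on either strand, to 15 motifs, of which the ones seen here are CACGTG (the E-box bound by Myc), GACGTG (a hypoxia response core), TGATGNAA (the amino acid response element core bound by ATF4), TGACNNNGC (the core bound by NRF2), GCGCATGC (bound by NRF1), CCAAT and GGGCGG (bound by Sp1 and KLF factors). In Slc16a1 the CACGTG overlaps the TGACNNNGC match. Slc2a1 and Slc3a2 are shown as 2 of the 5 carriers, from chr4:119108495-119108710 on the plus strand and chr19:8713898-8713960 on the minus strand, the latter before its internal starts. Slc16a1 and Slc16a3 are shown as the main lactate carriers, from chr3:104638414-104638663 and chr11:120948817-120949052 on the plus strand. Slc7a11, the cystine carrier, is shown for its pair of TGATGNAA matches, from chr3:50443615-50443863 on the minus strand. Each of these stretches overlapped a region open in both replicates.
Slc2a1 promoter: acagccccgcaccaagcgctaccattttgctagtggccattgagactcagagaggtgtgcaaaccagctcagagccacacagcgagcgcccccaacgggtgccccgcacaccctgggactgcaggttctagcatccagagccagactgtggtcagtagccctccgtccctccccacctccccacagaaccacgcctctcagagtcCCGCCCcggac
Slc3a2 promoter: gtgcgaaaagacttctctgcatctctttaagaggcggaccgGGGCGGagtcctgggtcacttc
Slc16a1 promoter: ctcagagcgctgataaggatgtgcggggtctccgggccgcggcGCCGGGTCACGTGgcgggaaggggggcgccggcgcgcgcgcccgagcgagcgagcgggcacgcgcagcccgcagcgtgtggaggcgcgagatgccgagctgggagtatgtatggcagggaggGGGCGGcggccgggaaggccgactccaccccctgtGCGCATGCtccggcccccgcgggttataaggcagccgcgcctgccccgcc
Slc16a3 promoter: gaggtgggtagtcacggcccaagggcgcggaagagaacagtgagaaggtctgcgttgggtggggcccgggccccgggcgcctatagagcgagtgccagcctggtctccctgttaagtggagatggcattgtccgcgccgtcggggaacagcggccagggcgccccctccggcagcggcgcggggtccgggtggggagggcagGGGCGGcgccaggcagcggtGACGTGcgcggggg
Slc7a11 promoter: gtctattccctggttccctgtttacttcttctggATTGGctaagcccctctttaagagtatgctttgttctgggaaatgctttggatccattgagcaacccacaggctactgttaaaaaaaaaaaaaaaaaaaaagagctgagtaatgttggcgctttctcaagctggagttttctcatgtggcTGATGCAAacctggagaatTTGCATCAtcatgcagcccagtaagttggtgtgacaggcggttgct

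A promoter is described as open here when a region found in both replicates lay within 1 kb of any annotated transcript start of the gene. Of the 64 carriers, 48 (75.0%) had an open promoter, beside 65.9% of all protein-coding genes and 71.7% of the 321 other genes with Slc symbols. All 5 carriers known in activated T cells were open, as were 43 of the other 59 (72.9%). In another 3 genes, Slc1a6, Slc2a2 and Slc16a14, a promoter region was present in replicate 1 only, and Slc2a10 had one in replicate 2 only. Few or many cells behind an open region cannot be told apart in such lists, so that fewer cells with more open DNA would give the same values. An open promoter is common over the whole genome, and the shares of the carriers lie near it. No test compares the lists, since there is 1 group and the genes were chosen by name.

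Promoter signal, the enrichment value in the authors' deposited lists, ranked low to middling at most of these carriers. All paired values below give replicate 1 first. The median signal over the 48 open promoters was 9.00 and 8.51, beside 11.3 and 11.1 over all 14434 open promoters. Ranked among those 14434 and averaged over both replicates, the carriers had a median percentile of 30.3, against 41.2 for the other Slc genes. The 5 carriers known in activated T cells also had a median of 30.3, with a range of 21.0 to 45.6, and the others spread from 1.58 to 91.8 around a median of 30.3. None of the 5 exceeded the 50th percentile, whereas 15 of the 43 other open carriers did. Within 2.5 kb of a start, however, Slc7a5 rose from 39.0 to 58.4, since an intronic region described below lies 2.07 kb from an internal start. Genes that define the cells ranked low too. The promoters of 7 of 7 T cell markers were open with a median percentile of 12.6, and those of 5 of 5 T-helper 1 markers, among them Tbx21 and Ifng, with a median of 11.2. The few open markers of other cell types ranked higher, at 95.3 for NK cells (1 gene), 62.2 for erythroid cells (2), 47.5 for B cells (1), 38.6 for stromal cells (2), 32.7 for neurons (2) and 23.4 for CD8 T cells (1). The reference that the signal is relative to is not stated, so a signal is a rank within these lists and not an amount of transcription.

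**Figure D1:**
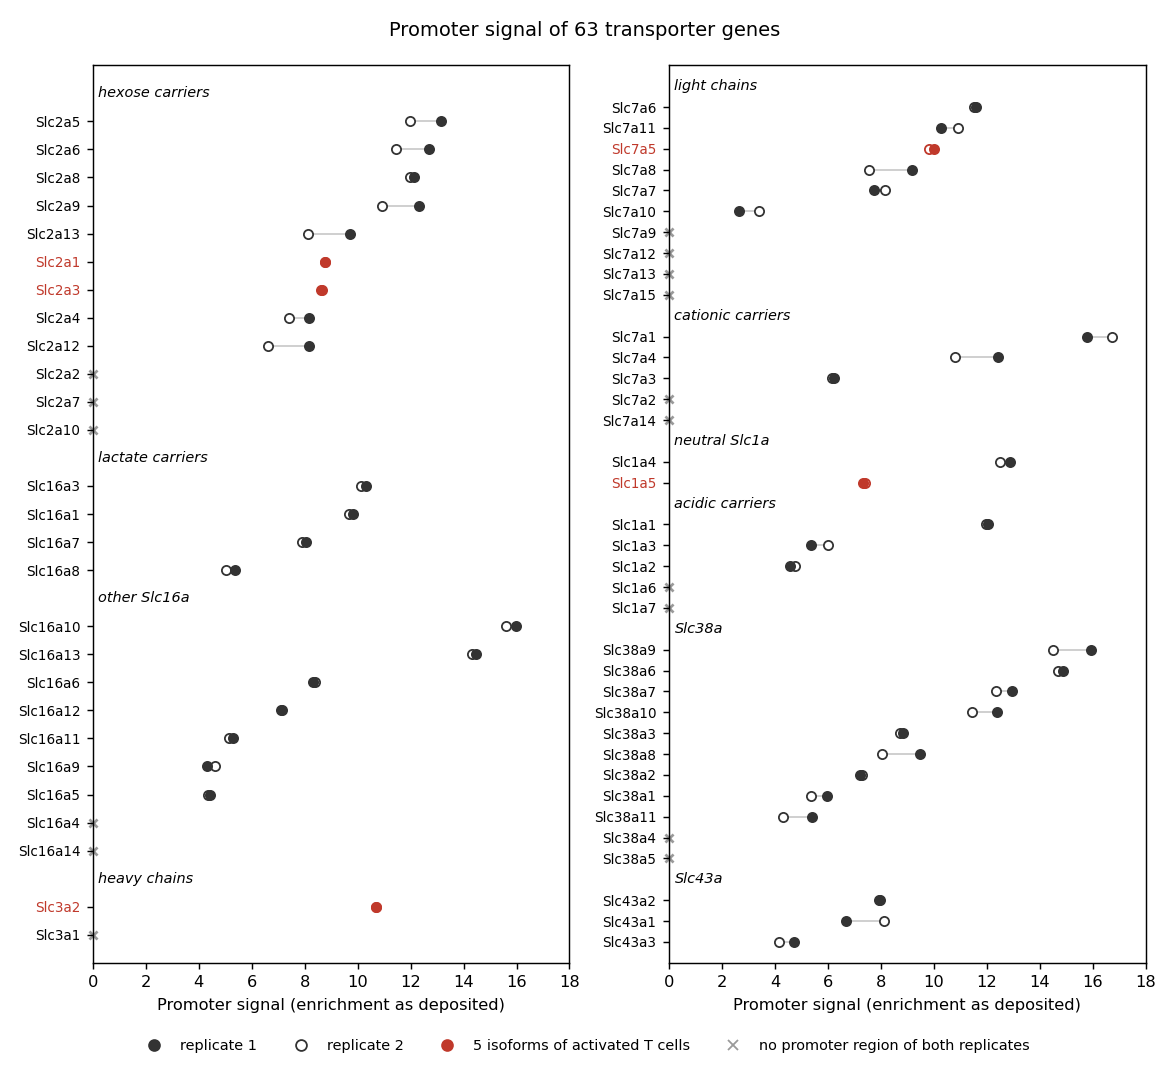
Promoter signal (enrichment as deposited, x axis) of 63 carriers, grouped by role, with replicate 1 as filled and replicate 2 as open circles joined by a line. The 5 carriers known in activated T cells, in red, lie between 7.33 and 10.7, and 16 genes marked with a cross have no promoter region of both replicates.

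The replicates ranked the carriers alike. Over the 48 open promoters, the stronger value exceeded the weaker by a median factor of 1.05, and by more than 1.2 in 5 genes, with the highest factor of 1.28 at Slc7a10. The Spearman correlation of the replicates was 0.968, as a description over 48 genes of the same libraries. Signal was higher in replicate 1 at 36 of the 48, against 8879 of all 14434 open promoters.

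The promoter regions of the 5 carriers ranked no higher than those of the others by signal, but they ranked higher by width. Their widest promoter region had a median width of 2025 bp, at the 87.8th percentile of open promoters, and 4 of the 5 were above the 50th. The other open carriers had a median width of 1295 bp, at the 42.3rd percentile, with 19 of 43 above the 50th. The width was looked at after the signal values were known, and with 1 start per gene the median percentile of the 5 was 70.9. Ranked by −log10 q, the deposited strength of evidence for a region, the 5 had a median percentile of 73.7 and the other carriers 22.7. The 5 ranged from 34.6 at Slc2a3 to 85.0 at Slc2a1, with 3 above the 50th, as were 15 of the 43 others. The 5 genes had a median of 8 annotated starts and the others 5, and a gene with more starts has more chances to meet a wide region. The part of the starts in the widths was not tested.

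Regions were also more numerous around the 5, counted over each gene with 20 kb of flank at both ends. They had a median of 9 regions of both replicates (range 8 to 12), the other 59 carriers a median of 6 (0 to 16), and all protein-coding genes a median of 4. Among genes of the same length class, with genes split into 10 classes, the 5 stood at a median percentile of 86.5 and all 5 lay between 79.3 and 97.2. The other carriers had a median of 52.0, with 30 of 59 above the 50th, and the other Slc genes 57.6. All 5 had open promoters, whereas the 59 include 16 carriers without one, whose median percentile was 23.6. The 48 open carriers, the 5 among them, had a median of 70.4 with 7 regions. All genes with an open promoter had 63.9 with 6 regions. The T cell markers and the T-helper 1 markers had medians of 89.4 and 90.3 on the same scale. The 2 groups of carriers overlapped on each of these scales, and with 5 genes chosen by name no test of the difference was made.

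**Figure D2:**
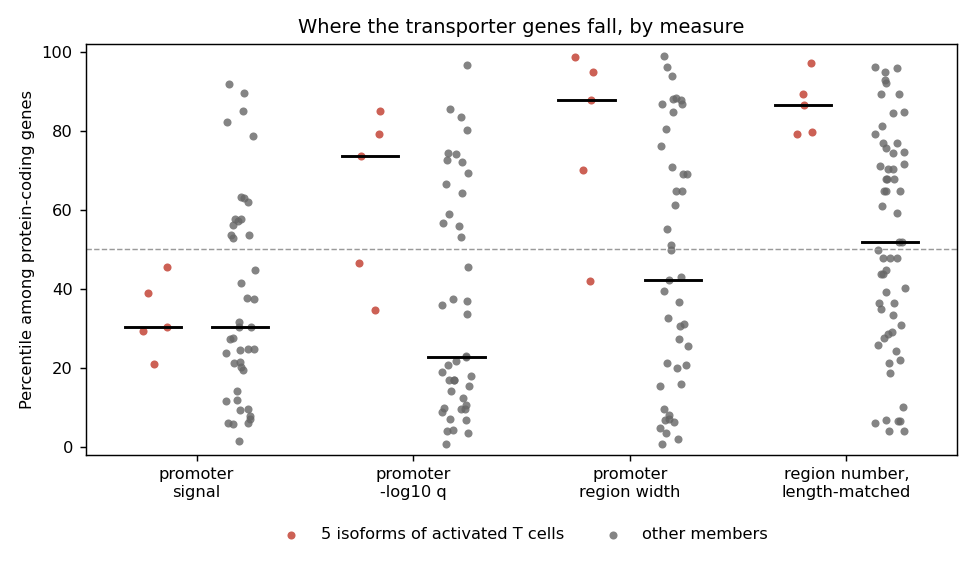
Percentile among protein-coding genes (y axis) for promoter signal, promoter −log10 q, promoter region width and region number among genes of the same length, with 1 point per carrier, a black bar at the median of each group and a dashed line at 50. The medians of both groups are 30.3 for signal, and 86.5 against 52.0 for region number, where the other carriers include those without an open promoter.

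Glucose and related sugars enter through the Slc2a family, of which 9 of 12 had open promoters. Slc2a1 (chr4:119108711-119137983, plus strand), the basal glucose carrier of most cells, had a promoter region at chr4:119108158-119109447 with a signal of 8.78 and 8.75, and Slc2a3 (chr6:122727809-122801640, minus strand), the high-affinity glucose carrier, had 8.61 and 8.64. Both sat in the middle of the carriers, at rank 24 and rank 26 of the 48 open ones. By −log10 q, 439 and 385, Slc2a1 ranked 3 of 48. Slc2a3 had a second promoter region of 8.13 and 7.83 at chr6:122741935-122743566, at internal starts.

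By signal, stronger promoters in the family belonged to carriers with other roles. Slc2a5, which carries fructose, had 13.1 and 12.0, Slc2a6, a lysosomal member, had 12.7 and 11.4, Slc2a8, an intracellular one, had 12.1 and 12.0, and Slc2a9, a urate carrier, had 12.3 and 10.9. These 4 exceeded Slc2a1 and Slc2a3 in both replicates by signal. By −log10 q, however, Slc2a1 was above Slc2a5, Slc2a6 and Slc2a9 in both replicates. Slc2a8 had 453 and 382 there, beside the 439 and 385 of Slc2a1. The Slc2a9 region lay at internal starts, 22.9 kb inside the gene. Slc2a5 was open only through a region more than 500 bp from any start, and not at coding starts. Slc2a13, which carries myo-inositol, had 9.69 and 8.14, and its 306 kb gene and flanks held 1 region in all, its promoter. Slc2a4, the insulin-responsive carrier of muscle and fat, had 8.16 and 7.42, and Slc2a12 had 8.17 and 6.60. Slc2a2, the carrier of liver and pancreatic beta cells, Slc2a7 and Slc2a10 were not open in both replicates.

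The lactate carriers were all open, 4 of 4. Slc16a1, which encodes MCT1, had 9.81 and 9.67 at its single annotated start. Slc16a3, which encodes MCT4, the exporter of glycolytic cells, had 10.3 and 10.1 at internal starts, chr11:120950400-120951356. The region at its upstream starts, chr11:120948393-120949561, which holds the sequence printed above, had 5.36 and 5.96. The rank of Slc16a3 thus rests on the internal starts, at the 41.6th percentile with all starts and the 13.3rd with 1 start per gene. Slc16a7, which encodes the high-affinity MCT2, had 8.06 and 7.88. Slc16a8, which encodes MCT3 of the retinal pigment epithelium, had 5.35 and 5.04. Slc16a3 stood above Slc16a7 with all starts and at coding starts, where their percentiles were 42.7 and 25.8. The upstream region of Slc16a3 alone had less signal than the promoter of Slc16a7. Slc16a1 stood above Slc16a7 and Slc16a8 in both replicates. Slc16a7 was not open when only the start of its longest coding transcript was used, and Slc16a8 was not open at coding starts. Slc16a1 had a region 2042 bp wide around its start, and Slc16a3 stood at the 89.4th length-matched percentile with 8 regions. Basigin (Bsg), the chaperone that brings MCT1 and MCT4 to the membrane, had 16.2 and 14.9, and embigin (Emb), the partner of MCT2, had 7.67 and 7.40 with 18 regions around it.

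The other Slc16a genes carry aromatic amino acids, creatine and further substrates, and 8 of 10 were open. Slc16a10, the aromatic amino acid carrier, had 16.0 and 15.6, at the 89.5th percentile, and Slc16a13 had 14.5 and 14.3. Slc16a6 had 8.31 and 8.38 from a region it shares with Arsg at chr11:109472077-109474405. Slc16a5, Slc16a9, Slc16a11 and Slc16a12 lay between 4.29 and 7.15. Thus the strongest and the weakest promoters of the family both lay outside the lactate carriers.

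The heavy chains anchor the Slc7a light chains in the membrane, and 1 of 2 was open. Slc3a2 (chr19:8706882-8723369, minus strand), which encodes the CD98 heavy chain, had 10.7 and 10.7 at its upstream starts and 8.44 and 8.31 at a second region, chr19:8711803-8714203, 2401 bp wide. It had 10 regions around a 16.5 kb gene and the highest length-matched percentile of the 64 carriers, 97.2. Slc3a1, the heavy chain of the renal cystine carrier, had no promoter region in either replicate. Slc7a9, its partner light chain, had no promoter region and no shared region in its window, beside 20.2% of protein-coding genes without one.

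Of the 10 light-chain genes, 6 were open. Slc7a5 (chr8:121881150-121907694, minus strand) had 10.01 and 9.83 from a region 2025 bp wide, and it had the highest CpG ratio at its start of the 64 carriers, 1.20 against a median of 0.54. Slc7a6, which exchanges cationic for neutral amino acids, had 11.6 and 11.5, but its region was not shared when 50% mutual overlap was asked for. Slc7a11, which exchanges glutamate for cystine, had 10.3 and 10.9. These 3 lay near the signal of the heavy chain Slc3a2 in both replicates, whereas the open light chains Slc7a7, Slc7a8 and Slc7a10 lay lower than all 3. Slc7a8 had 9.17 and 7.56. Slc7a7 had 7.75 and 8.14 from a region 34.3 kb inside the gene and 0.72 kb from an internal start. Its percentile of 24.7 was 7.25 within 500 bp and 7.57 at coding starts, and it was not open with 1 start per gene. Slc7a10, a carrier of small neutral amino acids of brain and fat, had 2.63 and 3.38, the weakest open promoter of the 48, and it was not open within 500 bp of a start. Slc7a9, Slc7a12, Slc7a13 and Slc7a15 had none.

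Cationic amino acids such as arginine and lysine enter through Slc7a1 and its relatives, of which 3 of 5 were open. Slc7a1 had the highest mean percentile of the 48 open carriers, with 15.8 and 16.7 at an annotated internal start, chr5:148342154-148343237. In replicate 1, Slc16a10 and Slc38a9 were above it. The region at its upstream start, chr5:148398687-148400512, had 9.59 and 10.1 and a −log10 q of 374 and 366. The rank of Slc7a1, the 91.8th percentile, thus belongs to the internal start and was 39.5 at coding starts, and the upstream region alone was about as strong as that of Slc7a5. Slc7a4 had 12.4 and 10.8 and Slc7a3 6.23 and 6.14, while Slc7a2 and Slc7a14 had no promoter region.

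Neutral and acidic amino acids are carried by Slc1a. Slc1a5 (chr7:16781340-16798274, plus strand), the glutamine carrier, had 7.33 and 7.39, the lowest signal of the 5 carriers known in activated T cells, at rank 35 of 48. Its region at chr7:16780941-16783906 was 2966 bp wide and ranked 2 of 48 by width. Slc1a4, its neutral amino acid relative, had 12.9 and 12.5 with a −log10 q of 633 and 547, above Slc1a5 in both replicates on both measures. The glutamate carriers best known from neurons and glia were open in 3 of 5 genes. Slc1a1 had 12.1 and 12.0, Slc1a3 had 5.36 and 6.00, and Slc1a2 had 4.57 and 4.76, whereas Slc1a6 and Slc1a7 were not open in both replicates.

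Of the sodium-coupled Slc38a genes, 9 of 11 were open. Slc38a9, the lysosomal arginine carrier and sensor upstream of mTORC1, had 15.9 and 14.5. Slc38a6 had 14.9 and 14.7, from a region it shares with Trmt5 at chr12:73286141-73287441, so the 2 genes cannot be told apart there. Slc38a7, a lysosomal glutamine carrier, had 12.9 and 12.3, and Slc38a10 had 12.4 and 11.4. By signal, the glutamine carriers of the plasma membrane were weaker. Slc38a2, which is induced by amino acid shortage, had 7.20 and 7.29, and Slc38a1 had 5.95 and 5.38 at internal starts. By −log10 q, Slc38a2 had 246 and 216, above the 165 and 131 of Slc38a7. It was below Slc38a6, Slc38a9 and Slc38a10 on that measure too. Slc38a3, Slc38a8 and Slc38a11 lay between 4.30 and 9.47, and Slc38a4 and Slc38a5 were not open. All 3 Slc43a genes were open, with 7.96 and 7.92 at Slc43a2, a branched-chain amino acid carrier whose widest promoter region was 3057 bp, 6.66 and 8.10 at Slc43a1 and 4.72 and 4.13 at Slc43a3, which carries purine bases.

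The CpG ratio from 250 bases before to 50 after the start of the longest coding transcript, the observed over the expected number of CpG, had a median of 0.30 in the 16 carriers without an open promoter and 0.61 in the 48 open carriers. Over all protein-coding genes the medians were 0.18 without and 0.73 with an open promoter. The 5 carriers known in activated T cells had a median of 0.88, with the lowest value, 0.48, at Slc2a1. No shared region at all lay in the gene and 20 kb of 6 of the 64 carriers, beside 4421 of 21911 protein-coding genes (20.2%). These carriers were Slc1a6, Slc7a9, Slc7a12, Slc7a14, Slc16a14 and Slc38a4.

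**Figure D3:**
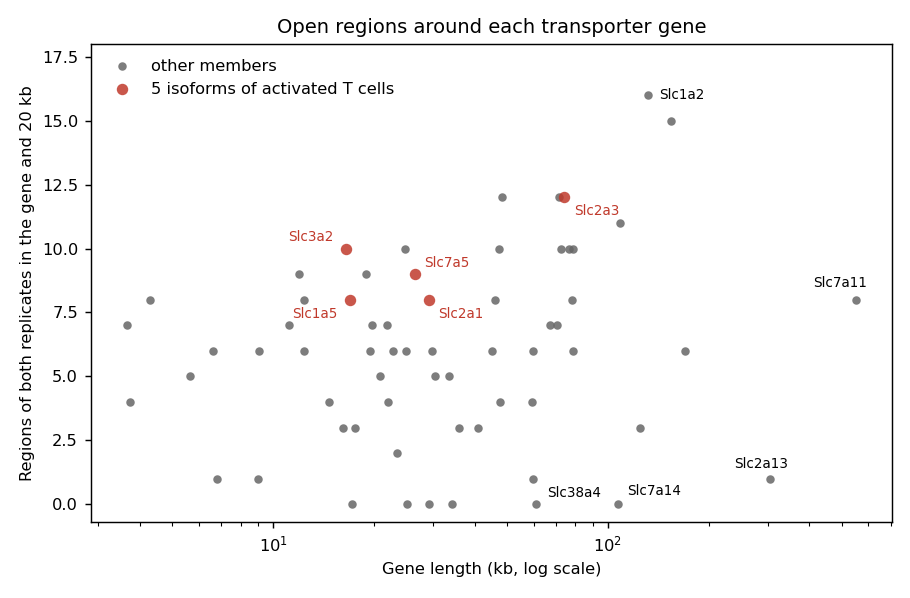
Number of regions of both replicates over the gene with 20 kb of flank at both ends (y axis) against gene length in kb (x axis, log scale), 1 point per carrier. The 5 carriers known in activated T cells, in red, hold 8 to 12 regions, and the 306 kb gene of Slc2a13 holds 1.

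Regions away from promoters made up most of the landscape. The windows of the 64 genes held 380 distinct shared regions, of which 69 lay at their own starts and 43 at starts of other genes. The other 268 (70.5%, beside 78.7% of all shared regions) divided into 124 intronic, 99 intergenic and 45 exonic ones. Their median signal, 6.31, was close to the 6.29 of all shared regions outside promoters. Ranked among all 84380 shared regions, promoters included, 20 of the 268 were in the strongest 10%. Of 46 open carriers with a region outside promoters, 28 had one that was stronger than the promoter in both replicates and 17 did not, while 1 changed order between the replicates. This count sets the strongest of the regions in a window against the promoter. It was not made over all protein-coding genes, so whether it is usual is not known.

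Intronic regions were stronger than the promoter in both replicates at 2 of the 5 carriers. Regions outside promoters were so at 28 of the 46 open carriers counted above. In Slc7a5, a region at chr8:121897949-121899061, 9.12 kb inside the gene, had a signal of 11.9 and 12.5 and a −log10 q of 600 and 553, above its promoter in both replicates. In Slc2a3, a region at chr6:122758454-122759211, 42.7 kb inside the gene, had 11.4 and 11.5, again above the promoter. The Slc7a5 region was at the 83.6th and the Slc2a3 region at the 80.4th percentile of all shared regions, promoters included. The 201 bases around the summits of these regions are printed on the plus strand, with matches to the 15 motifs in capitals. The Slc2a3 stretch (chr6:122758823-122759023) holds TGACTCA (bound by AP-1) and the reverse complement of TGTGGTT (bound by RUNX factors), and the Slc7a5 stretch (chr8:121898472-121898672) holds the reverse complement of TGATGNAA.
Slc2a3 intron: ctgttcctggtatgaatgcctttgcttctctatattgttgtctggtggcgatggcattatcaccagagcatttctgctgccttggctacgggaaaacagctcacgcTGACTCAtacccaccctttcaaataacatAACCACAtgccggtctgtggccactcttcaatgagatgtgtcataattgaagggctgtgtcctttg
Slc7a5 intron: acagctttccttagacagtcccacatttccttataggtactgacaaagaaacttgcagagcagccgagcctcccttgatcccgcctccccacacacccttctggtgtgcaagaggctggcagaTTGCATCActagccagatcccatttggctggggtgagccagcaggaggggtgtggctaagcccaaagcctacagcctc

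Slc2a1 was arranged otherwise. Its promoter was its strongest region, and the strongest others were an intronic region of 6.62 and 6.48 at chr4:119124819-119127862, 3044 bp wide, and one of 6.50 and 6.56 lying 2.77 kb before the start. Both had a −log10 q between 237 and 268. Slc3a2 too had no region outside promoters above its own promoter. In Slc1a5, a region 23.5 kb from its 5′ end and beyond its 3′ end, with 8.91 and 11.4, was stronger than the promoter, but it lay nearer to the start of another gene. Of the 47 regions in the windows of the 5 carriers, 5 were promoters of other genes, and these had the highest median signal of any kind there, 14.4.

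**Figure D4:**
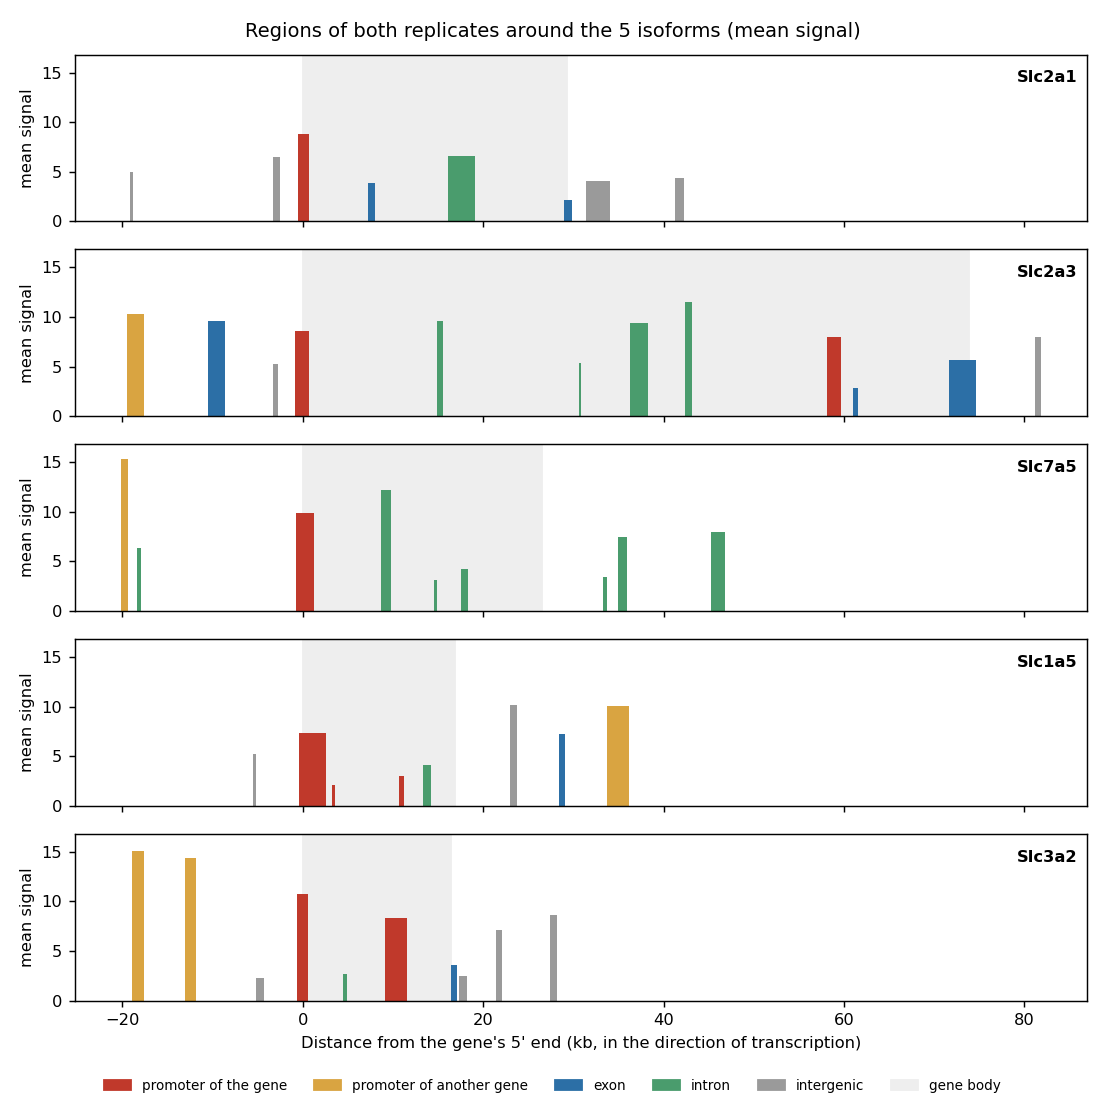
Regions of both replicates around the 5 carriers known in activated T cells, with distance from the gene's 5′ end in kb (x axis), mean signal of the 2 replicates (y axis), bars drawn at the width of each region and coloured by kind, and the gene body shaded. Intronic bars exceed the promoter in Slc7a5 and Slc2a3, and the promoter is the tallest bar in Slc2a1.

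By the mean of both replicates, the strongest region outside promoters around the carriers lay in an intron of Slc7a15, whose promoter was not open. It lay at chr12:8571469-8572459, 27.2 kb inside the gene, with 17.6 and 20.7, at the 99.8th percentile of all shared regions, promoters included. An intronic region of Slc1a7, also without an open promoter, had 17.3 and 17.5, at the 98.7th percentile. An intergenic region 10.3 kb before Slc16a5, whose own promoter had 4.43 and 4.35, reached 18.8 and 17.0. In replicate 1 this region and an intronic one of Slc7a8, with 17.9 and 14.3, were above that of Slc7a15. Strong regions thus lay in the windows of carriers with and without an open promoter, and which gene such a region acts on was not measured. Slc38a1 had 4 regions outside promoters between 12.2 and 17.2, each more than 2 times its promoter signal in both replicates.

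Motif shares were set beside those of other open genes. An open gene counts with every RefSeq entry it has, whether or not the entry overlaps its open region. The entry of Slc2a5, chr4:150119094-150119393, lies away from its promoter region, chr4:150137948-150138665. Of the 5 carriers known in activated T cells, Slc1a5, Slc2a3 and Slc7a5 have no entry in the RefSeq table and are not in the promoter shares. GACGTG was present in the promoters of 6 of the 34 open carriers in the RefSeq table (17.6%), Slc2a1, Slc16a1, Slc16a3, Slc7a6, Slc7a7 and Slc38a10, beside 10.5% of 11188 open protein-coding genes. In Slc2a1 and Slc16a1 it lay outside the bases printed above. TGATGNAA was present in 3 of 34 (8.82%), Slc7a11, Slc1a4 and Slc7a7, beside 2.76%. CACGTG was present in 4 of 34 (11.8%, beside 11.4%) and GGGCGG in 23 (67.6%, beside 67.3%). Over all 27025 genes of the table, open and other genes alike, GACGTG was found in 7.15%, TGATGNAA in 4.51%, CACGTG in 8.09% and GGGCGG in 38.2%. CCGGAAG, bound by ETS factors, went the other way, in 3 of 34 (8.82%) beside 18.4%. Apart from that of GGGCGG, these shares have 3 to 6 genes behind them, and all are counts of letters in these windows. Around the summits of the 268 regions outside promoters, TGACTCA was present in 22.8% and TGTGGTT in 9.70%, beside 24.5% and 10.7% of all 66413 such regions.

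Genes of a sensing list had a higher median percentile than the carriers, and one near that of all open genes. All 30 genes of this list of amino acid and glucose sensing, with mTORC1, its Rag and Ragulator anchors and Gcn2 (Eif2ak4), were open. Over all protein-coding genes 65.9% were open. The list had a median signal percentile of 55.0, beside 50.1 over all genes with an open promoter. Rptor, the mTORC1 scaffold, was highest, at 96.8 with 17.1 and 17.8, and Ddit4, an mTORC1 inhibitor, lowest, at 17.4 with 7.14 and 6.44. In a list of other carriers of amino acids, peptides and sugars, 21 of 31 (67.7%) were open, with a median percentile of 18.1. Slc17a5, the lysosomal sialic acid carrier, was highest there, at 98.3, and Slc6a7, a proline carrier of neurons, lowest, at 0.596. The 10 that were not open are Slc5a2, Slc5a4b, Slc5a9, Slc6a14, Slc6a15, Slc6a18, Slc6a20b, Slc15a2, Slc36a2 and Slc36a3. Both lists were written with earlier results of these data known and were not tested.

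Markers of other cells bear on carriers known from other tissues. None of 4 myeloid and 3 hepatocyte markers had an open promoter, and neither did 3 of 4 B cell markers. In replicate 1 only, however, 2 of the 4 myeloid markers had a promoter region. Single promoters were open among the markers of B cells (Pax5), NK cells (Klrb1c) and CD8 T cells (Cd8b1), and 2 of 3 each for erythroid cells, neurons and stromal cells. Open promoters of genes known from other tissues were thus seen among these markers as well as among carriers such as Slc1a2, of astrocytes, and Slc2a4. The part of other cells in these values was not tested.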

How the data were processed

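ATAC-seq was measured in T-helper 1 primary cells with 2 biological replicates in 1 group, numbered as in the labels. Coordinates are those of mm10, per the labels. For the aligner, the region caller and the read filters, a name or version is not given in the sources used here. Each replicate has its own list of open regions, so the replicates were compared after region calling. Column 7 of the deposited lists is a signal, taken as the enrichment of the region, with its reference not stated. Columns 8 and 9 of the deposited lists hold −log10 p and −log10 q, with a lowest −log10 q of 1.01 and 1.00. The deposited display score and the summit offset complete each list, and the score was not used. The read depth behind the lists is unknown, so no counting interval is given. Replicate 1 had 98875 regions and replicate 2 had 91488.

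Regions on chromosomes 1 to 19, X and Y that overlapped by at least 1 bp between the lists were joined into 84380 shared regions, each with the strongest signal of either replicate's members. Genes came from GENCODE M21, with 1 gene kept per symbol. A shared region within 1 kb of any transcript start made a promoter open, and a gene with several promoter regions took the strongest signal. Region numbers counted shared regions over each gene with 20 kb of flank at both ends, ranked within 10 classes of gene length. Motifs were searched on both strands. The steps were tested on simulated regions. Python 3.11.15, numpy 2.4.6, pandas 2.3.3, scipy 1.17.1, matplotlib 3.10.9 and pysam 0.24.0 were used.

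The genes, lists, motifs and alternatives were chosen with earlier results of these data known. Every carrier could be named, as could genes sharing a promoter region with one, and, from the lists, the genes with the highest and lowest percentile and those not open. Slc66a1 of the carrier list was not annotated as protein-coding and was not used here. No test was run, since 1 group of 2 replicates holds no contrast and genes are not replicates. Alternatives changed the promoter distance, the starts, the overlap, the −log10 q minimum, the ranking, the flank and the replicates. The values of 1 carrier are counted in the totals and not reported here singly. The promoters of 17 carriers not in the promoter table, among them Slc1a5, Slc2a3 and Slc7a5, were not searched for motifs.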

Additional observations from a re-analysis of the deposited data

How the results depend on the processing

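The 5 carriers known in activated T cells had open promoters under all 8 alternatives, and the number of open carriers lay between 42 and 51 of 64. The median signal percentile of all carriers was 33.6 within 2.5 kb of a start and 34.1 ranked by −log10 q, and 28.8 to 31.0 with 1 replicate. For the 5 carriers it was 29.2 within 2.5 kb, 31.4 at coding starts, 32.4 with 1 start per gene, 29.5 at 50% overlap, 29.2 at a −log10 q of at least 5, 31.2 for the region of highest −log10 q, and 31.0 to 31.4 with 1 replicate. The order by −log10 q gave the 5 a median of 73.7. The median width percentile of the 5 was 70.9 with 1 start per gene and 86.2 to 90.05 with 1 replicate. Median region numbers scaled with the window by construction, to 2 for all carriers and 4 for the 5 in the gene body alone and to 11.5 and 15 with 50 kb flanks. The length-matched percentile of all carriers was 58.6 at 50% overlap, 57.4 at a −log10 q of at least 5, 56.0 in the gene body alone, 57.8 with 50 kb flanks, 63.8 for regions outside promoters, 64.4 for regions nearest to the gene and 58.5 to 59.8 with 1 replicate. For the 5 it was 82.4 at 50% overlap, 80.6 in the gene body alone, 90.3 for regions outside promoters, 92.1 for regions nearest to the gene and 86.5 to 90.4 with 1 replicate. Each of these length-matched percentiles of the 5 exceeded that of all carriers under the same setting. The causes of these shifts were not tested. Within 2.5 kb of a start the percentile rose from 5.83 to 49.6 at Slc16a5, from 6.95 to 62.0 at Slc1a2, from 11.7 to 36.8 at Slc1a3, from 24.6 to 62.0 at Slc43a2 and from 6.05 to 19.6 at Slc43a3. Slc38a3 and Slc38a8 were not open with 1 start per gene. No paired analysis was possible because there is 1 group. The read depth behind the lists is unknown.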
